A study of Mus musculus with 6 samples.

Results

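Nuclear receptors, their coregulators and a few glucocorticoid-responsive genes were followed on 6 Affymetrix whole-transcript arrays of cultured mouse fibroblast-like synoviocytes. The 37 listed genes comprise 30 nuclear receptors, 4 coregulators and 3 genes that respond to glucocorticoids or handle them. A gene was taken where a probe set carried its symbol and no other, and 35 of the 37 were found among 22180 genes; Nr1h2 and Ncor1 were not analysed here. The cells were fibroblasts of the joint lining from knee synovium of C57BL6 mice, used between passages 4 and 8, and every culture received an adenovirus, at 800 infectious units per cell for 2 h, 24 h before harvest. On 3 arrays the virus carried Epas1 (Ad-Epas1), which encodes the oxygen-regulated transcription factor HIF-2alpha, and on 3 it was empty (Mock). The infection was thus shared by both groups, and Epas1 was supplied from a virus rather than raised by low oxygen. The labels call the replicates biological without naming animals or cultures, so the p-values reflect how far these 6 samples scatter, and some of that scatter may be technical.

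Nuclear receptors are transcription factors whose activity is set by small lipophilic ligands such as steroids, thyroid hormone, vitamin D, retinoids and fatty acids. Steroid receptors bind DNA mostly as pairs of the same receptor, whereas receptors for retinoic acid, thyroid hormone, vitamin D, oxysterols and fatty acids pair with a retinoid X receptor (RXR). A receptor with its ligand recruits coactivators of the Ncoa family, and several receptors without ligand hold a corepressor complex that contains Ncor1. In synovial fibroblasts the glucocorticoid receptor is the target of the steroids used to treat arthritis.

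The upstream sequences of 3 receptor genes are shown because they carry the largest rise (Ppard), the largest fall (Nr2f2) and a fall in the shared partner of many receptors (Rxra). Each is the 250 bases before a RefSeq transcript start on GRCm38.p6, written 5′ to 3′ on the strand of the gene. Capitals mark matches, on either strand, to the core of the hypoxia response element (ACGTG or GCGTG), which HIF proteins bind, or to the receptor-binding hexamer AGGTCA. A stretch that reads ACGTG on both strands counts as a match.
Ppard, chr17:28232504-28232753, plus strand: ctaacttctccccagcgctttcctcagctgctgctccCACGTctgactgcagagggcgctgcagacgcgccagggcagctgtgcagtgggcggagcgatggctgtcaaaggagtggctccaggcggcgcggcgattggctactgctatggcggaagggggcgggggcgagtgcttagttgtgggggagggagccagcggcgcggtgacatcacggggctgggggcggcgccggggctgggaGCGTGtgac
Nr2f2, chr7:70366747-70366996, minus strand: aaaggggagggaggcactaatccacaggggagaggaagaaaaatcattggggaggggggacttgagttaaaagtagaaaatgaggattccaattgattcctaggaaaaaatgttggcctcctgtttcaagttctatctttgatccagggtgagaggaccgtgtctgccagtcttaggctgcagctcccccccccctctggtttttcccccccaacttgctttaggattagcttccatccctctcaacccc
Rxra, chr2:27709042-27709291, plus strand, the downstream of 2 listed starts: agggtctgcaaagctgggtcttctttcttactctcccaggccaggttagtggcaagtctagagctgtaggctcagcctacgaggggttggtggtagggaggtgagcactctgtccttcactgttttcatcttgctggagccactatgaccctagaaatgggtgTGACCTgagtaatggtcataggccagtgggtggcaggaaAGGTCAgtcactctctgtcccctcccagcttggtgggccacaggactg
The Ppard window held ACGTG on the minus strand, starting 213 bases before the transcript start, and GCGTG on the plus strand, starting 9 bases before it. The Nr2f2 window held none of these motifs. The Rxra window held AGGTCA on the minus strand at 87 bases and on the plus strand at 48 bases before the start, and the upstream Rxra window, starting at position 27676951, held none. Of 32851 windows of this length over all genes, 38.6% held ACGTG or GCGTG and 14.0% held AGGTCA. Among the 55 windows of the 33 listed genes that had one, the shares were 47.3% and 10.9%. The 7 windows of genes that passed the test below gave 28.6% and 14.3%. Among those genes, Ncoa3 had no window, and that of Vdr, a gene that fell, held GCGTG 79 bases before the start. These matches describe letters in the windows and are not measured binding sites.

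All values are log2 expression levels, 1 per gene and array, and a fold change is Ad-Epas1 over Mock. A gene passed the test when its adjusted p from limma, a linear model that shares the spread across genes (Benjamini-Hochberg over all 22180 genes), was under 0.05. Epas1 itself stood at 13.14, 13.15 and 13.11 in Ad-Epas1 and at 8.67, 8.71 and 8.51 in Mock (log2 fold change 4.50, SE 0.08, limma adjusted p = 4.6e-06). Array medians lay between 6.77 and 6.84, and 95% of 1390 olfactory and vomeronasal receptor genes, which these cells should hardly express, lay below 6.62. All 12 fibroblast markers stood above that level on every array. Between the groups, 2 of them rose and 3 fell (41.7% passed, against 16.3% of all genes). The labels give the cells as over 90% CD90-positive and under 1% CD14-positive, yet all 18 macrophage markers also stood above 6.62 on 5 arrays, and 13 did on Ad-Epas1 replicate 3. With all arrays entered, 5 of the 18 fell between the groups (27.8%, against 9.75% of all genes) and none rose. Their median was 11.4 and 11.0 in Ad-Epas1 replicates 1 and 2, 7.18 in Ad-Epas1 replicate 3, and between 10.7 and 11.2 in the 3 Mock arrays. Ad-Epas1 replicate 3 thus stood apart, with Adgre1, which encodes a surface antigen of mouse macrophages, at 5.89 beside 12.66 and 12.35 in replicates 1 and 2. Without this array the 5 macrophage markers that fell still passed. C1qb then also passed as lower (-0.95, limma adjusted p = 5.1e-04), and Cd14 passed as higher (1.48, limma adjusted p = 0.0025). Further fits without this array are given below, and why it differed was not tested. In such samples, fewer cells of a type and less RNA per cell cannot be told apart.

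Of the 35 genes, 29 did not pass, 1 rose and 5 fell. Ppard rose, and Nr2f2, Ncoa3, Esr1, Rxra and Vdr fell. The share that passed, 17.1%, was near the 16.3% of all genes that passed (6.57% up and 9.75% down, or 1458 and 2162 genes), so it is not a result about these genes as a set. Their median log2 fold change was -0.01, against 0.05 over all genes, and the median size of change was 0.15 against 0.16. At a change of at least 1.5-fold, Ppard and Nr2f2 passed, where 7.75% of all genes did (2.57% up and 5.19% down). With each array centred on its median, 1080 of all genes rose and 2742 fell, and 1 of the 35 rose and 6 fell. The groups did not overlap for 18 of the 35 genes, against 39.7% of all genes. Without Ad-Epas1 replicate 3, 8 genes passed (22.9%, 1 up and 7 down), against 24.3% of all genes. When any 1 of the Mock arrays was left out, 3 passed (1 up and 2 down). Of all 22180 genes, 2790, 1187 and 1181 passed without Mock replicates 1, 2 and 3. Ppard, Nr2f2 and Ncoa3 kept their calls whichever single array was left out. Leaving out Ad-Epas1 replicate 3 moved the log2 fold change of 13 genes that passed in neither fit by over 1.5 times. It became -0.33 for Ncoa1, -0.11 for Nr3c1, -0.07 for Fkbp5, -0.04 for Nr1h3, -0.02 for Nr2f6, 0.04 for Esr2, 0.04 for Esrrb, 0.05 for Esrrg, 0.06 for Nr6a1, 0.08 for Pgr, and 0.10 for Rxrg, Ppara and Hnf4a.

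**Figure D1:**
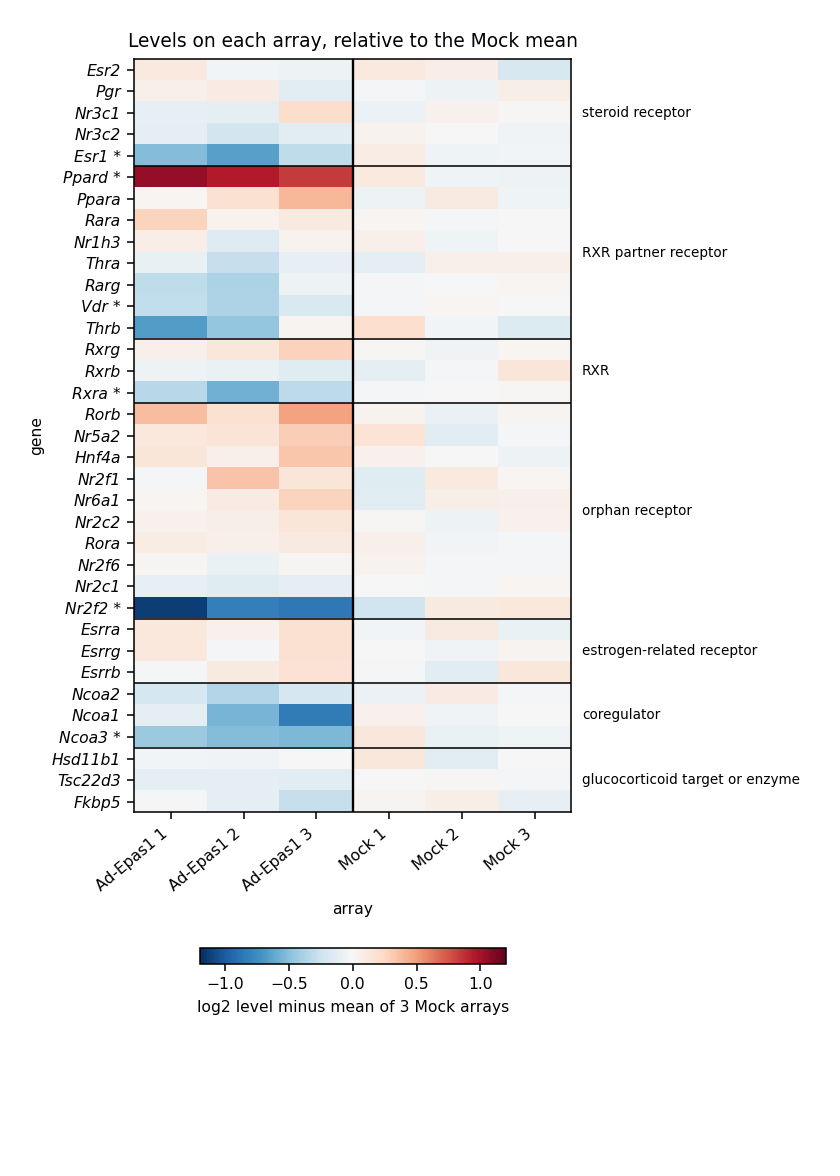
Log2 level of each gene on each array minus its mean over the 3 Mock arrays, with genes grouped by role and an asterisk where the gene passed the test. Ppard is high on all 3 Ad-Epas1 arrays and Nr2f2 low on all 3, while most other rows stay near 0, and Thrb and Ncoa1 differ among the Ad-Epas1 arrays.

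**Figure D2:**
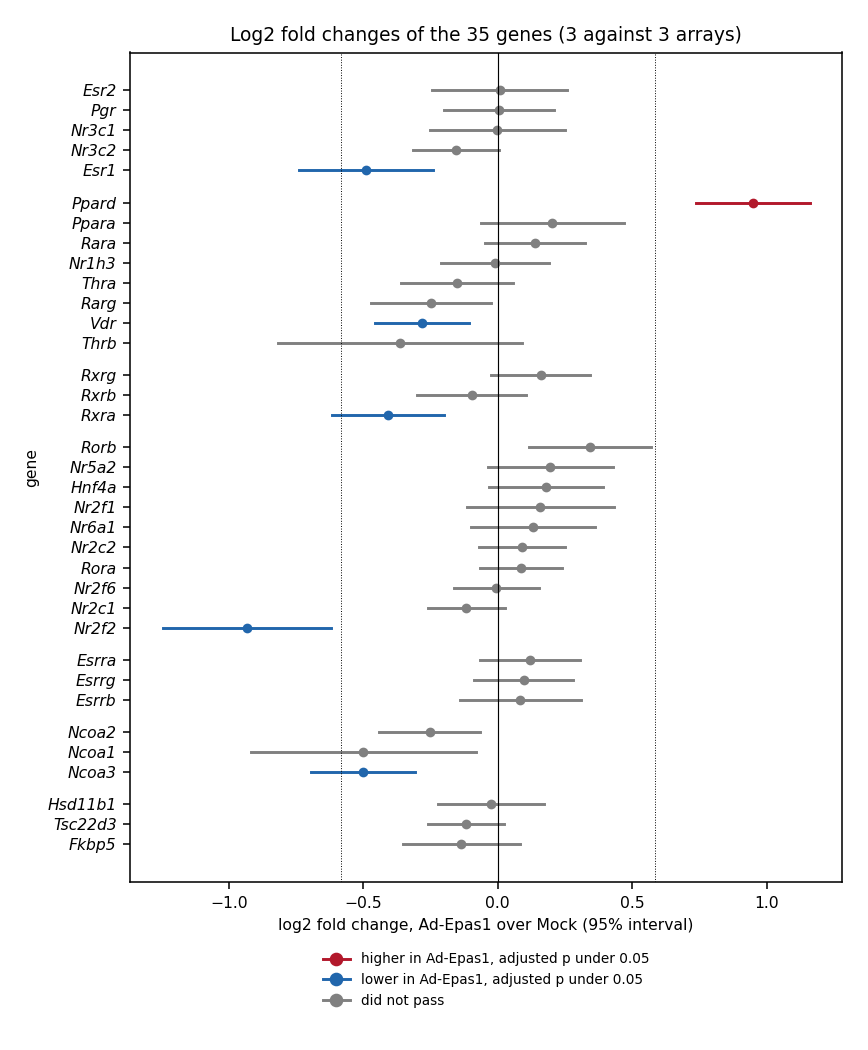
Log2 fold change of each of the 35 genes, Ad-Epas1 over Mock, with its 95% interval from limma over 3 against 3 arrays; dotted lines mark a 1.5-fold change. Only the intervals of Ppard and Nr2f2 lie wholly beyond a dotted line.

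Among the steroid receptors, Esr1 fell and the glucocorticoid receptor gene Nr3c1 showed no difference beyond its spread. Esr1, which encodes estrogen receptor alpha, stood at 6.95, 6.81 and 7.16 in Ad-Epas1 and at 7.56, 7.41 and 7.43 in Mock. The groups did not overlap, and Ad-Epas1 replicate 3 lay nearest to Mock. Esr1 was 1.41-fold lower in Ad-Epas1 (log2 fold change -0.49, SE 0.10, limma adjusted p = 0.024), and the fall was -0.59 without Ad-Epas1 replicate 3 (limma adjusted p = 0.0042). Leaving out any other single array ended the call (limma adjusted p between 0.068 and 0.083). Esr2, encoding estrogen receptor beta, differed by 0.01 with a 95% interval from -0.24 to 0.26.

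Nr3c1 stood at 10.04, 10.02 and 10.35 in Ad-Epas1 and at 10.07, 10.19 and 10.16 in Mock. The groups overlapped, and Ad-Epas1 replicate 3 held the highest value of all arrays. The difference was -0.0014, with a 95% interval from -0.25 to 0.25 (limma adjusted p = 0.99). Nr3c2, which encodes the mineralocorticoid receptor, stood at 7.46, 7.35 and 7.44 in Ad-Epas1 and at 7.61, 7.57 and 7.53 in Mock. These groups did not overlap, but the difference of -0.15 did not pass (limma adjusted p = 0.17). Nr3c2 was the only one of the 35 genes with 2 probe sets, and the dimmer one differed by 0.13 (limma adjusted p = 0.33, over all probe sets with 1 gene), in the other direction. Pgr, encoding the progesterone receptor, lay between 5.89 and 6.12 on all arrays, below the level under which most olfactory receptor genes fell.

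Ppard showed the clearest change among the receptors that pair with RXR. Ppard encodes PPAR-delta, a fatty acid sensor that regulates lipid oxidation. It stood at 10.71, 10.61 and 10.49 in Ad-Epas1 and at 9.77, 9.60 and 9.60 in Mock, so the lowest Ad-Epas1 array lay well above the highest Mock array. The rise was 1.93-fold (log2 fold change 0.95, 95% interval 0.74 to 1.16, limma adjusted p = 0.0021). With each array left out in turn it lay between 0.89 and 1.01 (limma adjusted p up to 0.018), and it was 1.01 without the array low in macrophage transcripts. Ppara, encoding the related fatty acid sensor PPAR-alpha, stood at 6.65, 6.81 and 7.03 in Ad-Epas1 and at 6.57, 6.73 and 6.58 in Mock, with overlapping groups (0.20, limma adjusted p = 0.25).

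Vdr, encoding the vitamin D receptor, fell slightly. It stood at 7.92, 7.84 and 8.03 in Ad-Epas1 and at 8.19, 8.23 and 8.22 in Mock, with no overlap and little spread among the Mock arrays. It was 1.21-fold lower in Ad-Epas1 (log2 fold change -0.28, SE 0.07, limma adjusted p = 0.045), and leaving out any single array but Ad-Epas1 replicate 3 ended the call (limma adjusted p up to 0.15). The call also ended with another quantile step between arrays (limma adjusted p = 0.088). Rarg and Thrb, encoding retinoic acid receptor gamma and thyroid hormone receptor beta, did not pass over all arrays and passed without Ad-Epas1 replicate 3. Rarg stood at 8.27, 8.19 and 8.50 in Ad-Epas1 and at 8.55, 8.57 and 8.59 in Mock (-0.25, limma adjusted p = 0.12, and -0.34, limma adjusted p = 0.015, without that array). Thrb stood at 6.78, 6.99 and 7.49 in Ad-Epas1 and at 7.65, 7.42 and 7.28 in Mock (-0.37, limma adjusted p = 0.23, and -0.57, limma adjusted p = 0.021, without that array). For both genes, Ad-Epas1 replicate 3 was the Ad-Epas1 array closest to Mock. Rara (0.14), Thra (-0.15) and Nr1h3 (-0.01), encoding retinoic acid receptor alpha, thyroid hormone receptor alpha and the oxysterol sensor LXR-alpha, did not pass. Nr1h3 stood at 7.97 on Ad-Epas1 replicate 3, the array low in macrophage transcripts, within the 7.78 to 8.01 of the other Ad-Epas1 arrays.

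The shared partner of these receptors, RXR-alpha, was lower in Ad-Epas1 at the transcript level. Rxra stood at 9.25, 9.01 and 9.27 in Ad-Epas1 and at 9.56, 9.59 and 9.60 in Mock, with no overlap. It was 1.33-fold lower (log2 fold change -0.41, SE 0.09, limma adjusted p = 0.024). The call held without Ad-Epas1 replicate 1 or 3 and ended without Ad-Epas1 replicate 2 or any 1 Mock array (limma adjusted p between 0.057 and 0.098). Rxrb differed by -0.10 with a 95% interval from -0.30 to 0.10. Rxrg lay between 5.85 and 6.17 on all arrays, below the olfactory receptor level of 6.62, and differed by 0.16 (limma adjusted p = 0.20).

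**Figure D3:**
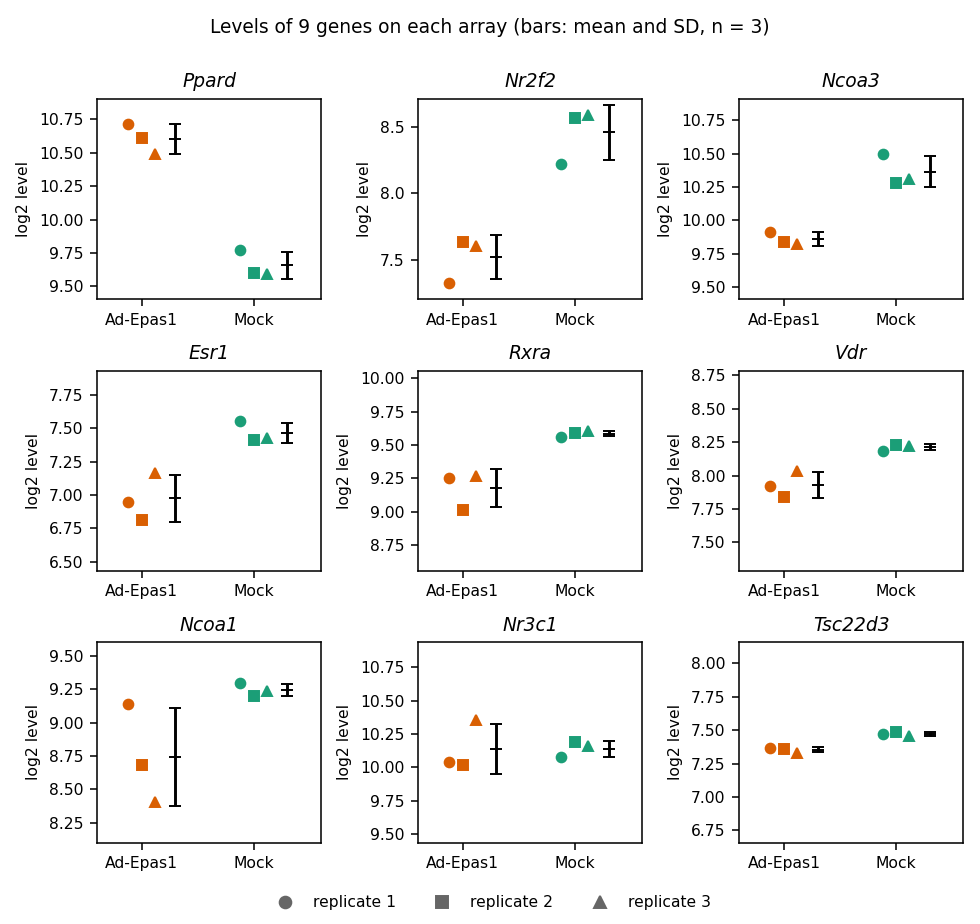
Log2 levels of 9 of the genes on each array, with a symbol for each replicate number and the mean and SD of 3 arrays beside them; every panel spans 1.5 log2 units. The groups are apart for all panels but Nr3c1, and Ncoa1 spreads from 8.41 to 9.14 within Ad-Epas1.

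Among the orphan receptors, which have no settled hormone ligand, Nr2f2 fell. Nr2f2 encodes COUP-TFII, a receptor of mesenchymal and vascular cells that often represses transcription. It stood at 7.33, 7.64 and 7.60 in Ad-Epas1 and at 8.22, 8.57 and 8.58 in Mock, and replicate 1 was the lowest array of each group. It was 1.91-fold lower in Ad-Epas1 (log2 fold change -0.93, 95% interval -1.25 to -0.62, limma adjusted p = 0.0066), and between -1.05 and -0.84 with each array left out in turn (limma adjusted p up to 0.039). Its close relative Nr2f1, encoding COUP-TFI, stood at 6.53, 6.89 and 6.69 in Ad-Epas1 and at 6.41, 6.67 and 6.57 in Mock, with overlapping groups (0.16, limma adjusted p = 0.38). Nr2f6 differed by -0.01 with a 95% interval from -0.16 to 0.15.

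Rorb, a relative of the clock regulator Rora, came close to the threshold at a low level. It stood at 6.40, 6.21 and 6.51 in Ad-Epas1 and at 6.07, 5.95 and 6.06 in Mock. The groups did not overlap, but all 6 values lay below the olfactory receptor level of 6.62 (log2 fold change 0.34, limma adjusted p = 0.054). Rora (0.09), Nr2c1 (-0.12) and Nr2c2 (0.09), the last pair encoding the testicular receptors TR2 and TR4, did not pass, although their groups did not overlap. Nr5a2 (0.20), Nr6a1 (0.13) and Hnf4a (0.18), regulators known from liver and germ cells, did not pass either. The 3 estrogen-related receptors, which control mitochondrial and metabolic genes, differed by 0.12 for Esrra, 0.10 for Esrrg and 0.08 for Esrrb, and their groups overlapped. In all, 5 of the 35 genes (Pgr, Rxrg, Rorb, Nr5a2 and Esrrb) lay below 6.62 on every array, where fold changes are compressed.

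The 3 coactivators of the Ncoa family each had no Ad-Epas1 array as high as a Mock array, as did 18.4% of all genes, and only Ncoa3 passed the test. These proteins bring histone acetyltransferases to receptors that hold their ligand. Ncoa3 stood at 9.92, 9.84 and 9.83 in Ad-Epas1 and at 10.50, 10.28 and 10.31 in Mock. It was 1.42-fold lower in Ad-Epas1 (log2 fold change -0.50, SE 0.08, limma adjusted p = 0.010), and between -0.54 and -0.44 with each array left out in turn (limma adjusted p up to 0.048). Ncoa2 stood at 9.30, 9.16 and 9.31 in Ad-Epas1 and at 9.44, 9.60 and 9.48 in Mock. Its groups did not overlap, and its difference of -0.25 did not pass (limma adjusted p = 0.076). It passed with each array centred on its median (-0.30, limma adjusted p = 0.038), with array weights (-0.34, limma adjusted p = 0.0086) and among genes above the median level alone (limma adjusted p = 0.048). Ncoa1 stood at 9.14, 8.68 and 8.41 in Ad-Epas1 and at 9.29, 9.20 and 9.23 in Mock. Its mean difference was as large as that of Ncoa3 (-0.50), but the Ad-Epas1 arrays differed among themselves, with replicate 1 close to Mock (SE 0.18, limma adjusted p = 0.10). The difference was -0.70 without Ad-Epas1 replicate 1 (limma adjusted p = 0.019) and -0.33 without Ad-Epas1 replicate 3, the lowest array (limma adjusted p = 0.13). With array weights it was -0.48 (limma adjusted p = 0.016).

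The 3 glucocorticoid genes did not pass the test. Fkbp5 encodes a co-chaperone that lowers the receptor's affinity for hormone and is itself induced by it. It stood at 6.74, 6.64 and 6.48 in Ad-Epas1 and at 6.78, 6.82 and 6.66 in Mock, near the olfactory receptor level, with overlapping groups (-0.14, 95% interval -0.35 to 0.08). Tsc22d3 encodes GILZ, an anti-inflammatory protein induced by glucocorticoids. It stood at 7.36, 7.36 and 7.33 in Ad-Epas1 and at 7.47, 7.48 and 7.45 in Mock, a small difference with no overlap (-0.12, 95% interval -0.26 to 0.02, limma adjusted p = 0.22). Hsd11b1 encodes the enzyme that regenerates active glucocorticoid inside cells. It stood at 7.04, 7.04 and 7.07 in Ad-Epas1 and at 7.21, 6.95 and 7.07 in Mock, with overlapping groups (-0.02, 95% interval -0.22 to 0.17).

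Changes of related receptors were set against each other within arrays, over 11 pairs chosen with the values known. The log2 ratio of Nr2f2 to Nr2f1 differed by -1.09 between the groups, that of Ppard to Ppara by 0.75, that of Esr1 to Esr2 by -0.50 and that of Rxra to Rxrb by -0.31, each with no overlap between the groups. That held for 7 of the 11 pairs, among them Rarg to Rara (-0.39), Rora to Rorb (-0.26) and Nr2c2 to Nr2c1 (0.21), whose members did not pass the test. In an exact two-sided permutation test of 3 against 3 arrays these 7 had p = 0.1, the smallest that test can give, and p = 0.16 after adjustment over the 11 pairs. Because the choice of pairs followed the values, neither the count of 7 nor this test is evidence of a difference. Other gene pairs were not counted, and 39.7% of single genes did not overlap either. The ratio of Ncoa3 to Ncoa1 differed by -0.0027 with overlapping groups (exact permutation p = 1.0).

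The other nuclear receptors of the mouse were measured in the same fit. Of 19, 16 were measured, 2 rose, 3 fell and 11 did not pass (31.2% passed, against 16.3% of all genes). Pparg, which encodes the adipogenic receptor PPAR-gamma, stood at 7.55, 7.55 and 7.48 in Ad-Epas1 and at 8.31, 8.84 and 8.80 in Mock. It was 2.18-fold lower (log2 fold change -1.12, limma adjusted p = 0.0051), the opposite direction to Ppard. Nr4a3, an immediate-early orphan receptor, stood at 7.88, 8.18 and 7.47 in Ad-Epas1 and at 6.51, 6.45 and 6.67 in Mock, a rise of 2.46-fold (limma adjusted p = 0.0057), although 2 of the Mock arrays lay below the olfactory receptor level of 6.62. Its relative Nr4a1 rose by 0.42 (limma adjusted p = 0.037), and the circadian repressors Nr1d1 and Nr1d2 fell by 0.62 and 0.57 (limma adjusted p = 0.016 and 0.035). These last 3 calls ended without Ad-Epas1 replicate 2, Mock replicate 2 or Mock replicate 3. Nr4a1 and Nr1d2 also lost theirs without Mock replicate 1, and Nr1d2 without Ad-Epas1 replicate 1. In all, 2 of the 16 passed without Ad-Epas1 replicate 2, Mock replicate 2 or Mock replicate 3, where 1512, 1187 and 1181 of all 22180 genes did. Without Mock replicate 1, 3 of the 16 passed, and 2790 of all genes. Over the whole family of 49 receptors, 45 were measured, 3 rose, 7 fell and 35 did not pass. The share that passed was 22.2%, against the same 16.3%.

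**Figure D4:**
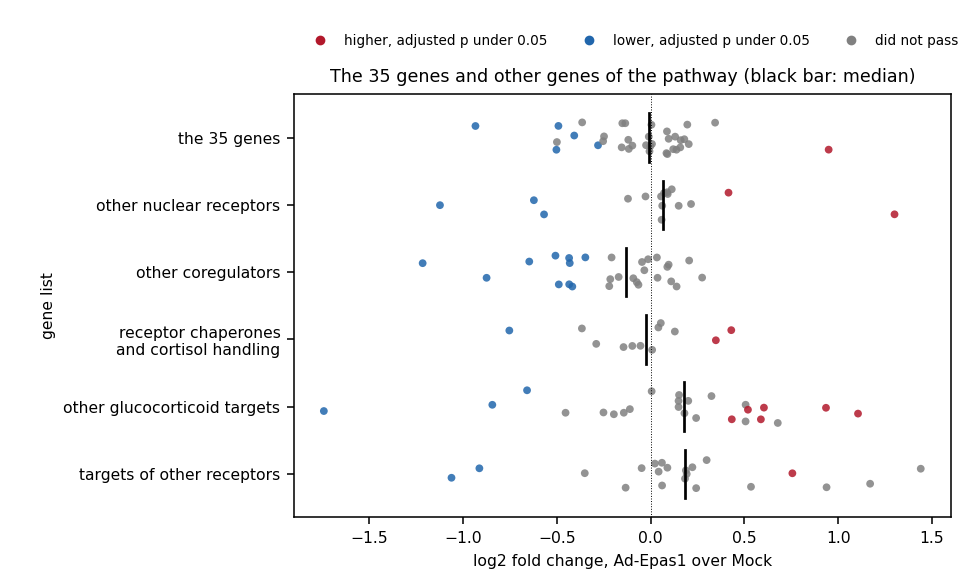
Log2 fold change, Ad-Epas1 over Mock, of each gene in the set of 35 and in 5 further lists, with a black bar at the median. No gene of the coregulator list that passed the test lies to the right of 0, and 10 lie to the left.

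Other coregulators that passed the test were all lower in Ad-Epas1. Of 28 measured, 18 did not pass and the other 10 fell, with a median of -0.13 (35.7% passed, against 16.3% of all genes, of which 9.75% fell). Among genes above the median level alone, 10 of 26 coregulators passed, all lower, against 3558 of 11090 genes (2180 lower). Whether the share that passed goes with level was not tested. Tbl1xr1, a subunit of the Ncor1 corepressor complex, stood at 9.28, 9.20 and 9.33 in Ad-Epas1 and at 10.47, 10.53 and 10.46 in Mock. It was 2.32-fold lower (log2 fold change -1.22, SE 0.07, limma adjusted p = 4.1e-04), and its relative Tbl1x was 1.83-fold lower (-0.87, limma adjusted p = 0.0068). Gps2 and Hdac3, named after their values were seen, belong to the same complex. Gps2 fell by 0.43 (limma adjusted p = 0.012), and Hdac3 differed by 0.11 (limma adjusted p = 0.31). The arginine methyltransferase gene Prmt1 fell by 0.65 (limma adjusted p = 0.0027), and the acetyltransferase genes Kat2a and Kat2b fell by 0.49 and 0.51 (limma adjusted p = 0.0081 and 0.010). With Ad-Epas1 replicate 3 left out 11 passed (10 down), with Ad-Epas1 replicate 2 left out 6, and with Mock replicate 2 or 3 left out 4. Tbl1xr1, Tbl1x, Prmt1 and Kat2a kept their calls whichever array was left out, whereas Kat2b and Gps2 lost theirs without Mock replicate 2 or 3 (limma adjusted p up to 0.056 and 0.062), and Gps2 also without Ad-Epas1 replicate 2.

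Chaperones that fold steroid receptors and enzymes that handle glucocorticoid were measured in the same way. Of 12 measured, 2 rose (16.7%) and 1 fell (8.33%), against 6.57% and 9.75% of all genes, and 9 did not pass. Hsp90aa1, the inducible HSP90 that holds the glucocorticoid receptor ready for hormone, rose by 0.43 (limma adjusted p = 0.0075), and Stip1, which hands clients from HSP70 to HSP90, rose by 0.35 (limma adjusted p = 0.013). H6pd, which supplies the cofactor that Hsd11b1 needs, stood at 9.13, 9.17 and 9.40 in Ad-Epas1 and at 10.05, 9.94 and 9.98 in Mock. It was 1.69-fold lower (limma adjusted p = 0.0042), beside the difference of -0.02 for Hsd11b1 given above. The Stip1 call ended without Ad-Epas1 replicate 2, Mock replicate 2 or Mock replicate 3 (limma adjusted p up to 0.065). Without Ad-Epas1 replicate 3, 2 rose (16.7%) and 3 fell (25%), against 10.3% and 14% of all genes.

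Further genes known to respond to glucocorticoids went both ways. Of 25 measured, 6 rose (24.0%, against 6.57% of all genes), 3 fell (where 9.75% of all genes did) and 16 did not pass, with a median of 0.18. Errfi1, a feedback inhibitor of EGF receptors, rose 1.91-fold (limma adjusted p = 0.0074), and Cebpb, a transcription factor of inflammation, rose by 0.52 (limma adjusted p = 0.011). Rasd1, encoding a small GTPase, stood at 6.88, 6.72 and 6.58 in Ad-Epas1 and at 6.16, 6.09 and 6.16 in Mock. It passed as higher (limma adjusted p = 0.0085), but all Mock arrays and Ad-Epas1 replicate 3 lay below 6.62, so the size of its change is not given. Anxa1, an anti-inflammatory phospholipid-binding protein, fell by 0.66 (limma adjusted p = 0.0086), and the repressor gene Bcl6 fell by 0.84 (limma adjusted p = 0.010). Many of these genes also answer to inflammatory, growth factor or oxygen signals. Per1 (0.51) and Klf9 (0.32), named after their values were seen as often used readouts of the receptor, did not pass (limma adjusted p = 0.084 and 0.066), and they passed without Ad-Epas1 replicate 3 (0.67 and 0.40, limma adjusted p = 0.010 and 0.022). Of the same list, Sgk1 (-0.20), Dusp1 (-0.14), Klf15 (-0.25) and Pdk4 (-0.45), likewise named afterwards, went the other way and did not pass. Pdk4 passed as lower without that array (-0.65, limma adjusted p = 0.0068). Over the list, 17 genes were higher and 8 lower. With Ad-Epas1 replicate 3 left out 11 passed, with Mock replicate 1 left out as well 16, and with Mock replicate 2 or 3 left out 3 and 4. Of all 22180 genes, 5390, 6000, 1187 and 1181 passed in these 4 fits, so the counts moved with those of all genes. Cebpb lost its call without Mock replicate 2 or Mock replicate 3 and Bcl6 without Mock replicate 2 (limma adjusted p up to 0.058 and 0.052).

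Targets of the receptors for retinoic acid, thyroid hormone, vitamin D, oxysterols, fatty acids and estrogen passed at about the rate of genes of all levels. Of 21 measured, 1 rose, 2 fell and 18 did not pass (14.3% passed, against 16.3%). Among genes above the median level alone, 3 of 16 passed, against 3558 of 11090 genes. Cpt1a, the mitochondrial fatty acid importer and a PPAR target, stood at 9.80, 9.66 and 9.69 in Ad-Epas1 and at 10.59, 10.65 and 10.65 in Mock. It was 1.88-fold lower (limma adjusted p = 9.8e-04). Plin2, which coats lipid droplets, and Fabp4, a fatty acid carrier, are also PPAR targets and were named after their values were seen. They differed by 0.54 and 1.17 and did not pass (limma adjusted p = 0.18 and 0.063), and without Ad-Epas1 replicate 3 they differed by 0.82 and 1.42 and passed (limma adjusted p = 0.0021 and 0.022). On that array, low in macrophage transcripts, Plin2 was at 10.72 and Fabp4 at 8.64, within their Mock ranges (10.66 to 10.91 and 7.62 to 8.66). Scd1 of the same list, also named after its values were seen, went the other way (-0.35, limma adjusted p = 0.21). Without that array Scd1 passed as lower (-0.55, limma adjusted p = 0.0076). Dhrs3, a retinaldehyde reductase induced by retinoic acid, was 2.09-fold lower (limma adjusted p = 0.0037), and the cholesterol exporter gene Abca1, a target of LXR, rose 1.69-fold (limma adjusted p = 0.014), a call that ended without Ad-Epas1 replicate 2, Mock replicate 2 or Mock replicate 3 (limma adjusted p up to 0.069). Cd36, a fatty acid scavenger receptor of macrophages, named after its values were seen, stood at 11.66, 11.42 and 5.34 in Ad-Epas1 and at 8.95, 7.43 and 7.71 in Mock. It moved with the macrophage markers on Ad-Epas1 replicate 3, and its part in the list was not tested. Its difference of 1.44 did not pass (limma adjusted p = 0.58), and without that array it was 3.51 (limma adjusted p = 0.0021). Without that array 9 of the 21 passed (42.9%, 6 up and 3 down), against 24.3% of all genes.

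**Figure D5:**
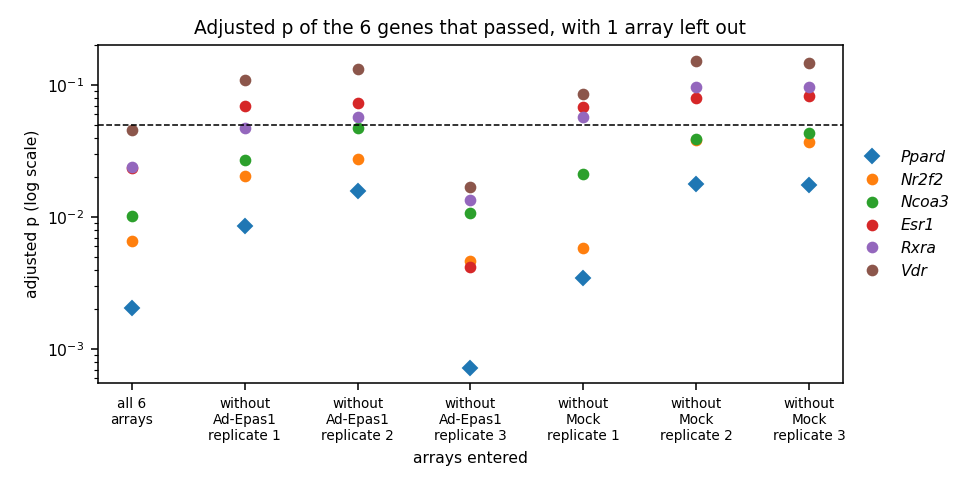
Adjusted p from limma, on a log axis, of the 6 genes that passed over all 6 arrays and with each array left out; the dashed line marks 0.05. Ppard, Nr2f2 and Ncoa3 stay below the line in every column, and Esr1, Rxra and Vdr lie above it in all columns without a Mock array.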

How the data were processed

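Total RNA of 3 Ad-Epas1 and 3 Mock cultures was hybridised after labelling of 300 ng each. The log2 expression values deposited by the authors came from RMA, run with Expression Console 1.3.1 of Affymetrix according to the submitters' processing notes. RMA equalises the arrays' distributions and compresses large changes, so a shift shared by most genes cannot be seen. The probe sets' genome build was not given in the sources used here. Precision is limited by the number of arrays, which carry no read depth.

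Of 41345 probe sets, 23521 had 1 gene symbol, 1814 had several and 16010 had none. Each of 22180 genes was represented by its brightest probe set, by mean over all arrays, with no filter on level. Groups come from the sample titles. Ad-Epas1 was tested against Mock with limma 3.58.1 in R 4.3.3 (lmFit and eBayes, two-sided, Benjamini-Hochberg over all genes, threshold 0.05), after a test on simulated data. SE and 95% intervals are limma's, and SD is over 3 arrays. All measured genes of the set are named, with up to 5 that passed from each other list, by p, unless stated. Genes, lists and alternatives were chosen with earlier results of these data known. Alternatives were a replicate block, arrays left out, median centring, another quantile step, a level filter, a trend and robust prior, array weights and other handling of probe sets. Upstream sequences come from RefSeq tables of GRCm38.p6 and cover 33 of the 37 genes.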

Additional observations from a re-analysis of the deposited data

How the results depend on the processing

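Directions of the 6 genes that passed held under every alternative run, and Ppard, Nr2f2 and Ncoa3 passed under all of them. The number of the 35 genes that passed lay between 3 and 8 with 1 array left out (6 with all), and 2 or 3 passed at 1.5-fold or more. The same ranges were 1181 to 5390 for all genes (3620), 2 to 6 for the other nuclear receptors (5), 4 to 11 for coregulators (10), 2 to 5 for chaperones and cortisol handling (3), 3 to 11 for glucocorticoid targets (9) and 2 to 9 for targets of other receptors (3). With array weights, 13 of the 35 genes passed, and 7791 of all genes, 5 chaperones, 17 glucocorticoid targets and 10 targets of other receptors. With Mock replicate 1 and Ad-Epas1 replicate 3 left out together, 6000 genes, 5 chaperones, 16 glucocorticoid targets and 10 targets of other receptors passed. With arrays centred on their medians, 5 chaperones passed, and 1080 genes rose and 2742 fell, against 1458 and 2162 without centring; the 35 genes gave 1 up and 6 down. Among genes above the median level alone, 3558 of 11090 passed. So did 6 of 20 genes of the set, 4 of 5 other nuclear receptors, 4 of 10 chaperones and cortisol genes and 10 of 19 glucocorticoid targets. The cause of these moves was not tested.

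The replicate block left 5 of the 35 genes (Vdr did not pass, adjusted p = 0.086) and 3108 of all genes. Same-numbered arrays deviated together with r = 0.34, -0.19 and 0.21 across genes, and Ad-Epas1 replicates 2 and 3 each correlated better with a Mock array of another number. Deviations from a mean of 3 arrays depend on each other, so these values cannot tell whether the numbers pair the samples.

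Signs turned only for genes that did not pass, and all of these but Nr6a1 lay near 0 with all arrays. After another quantile step, Nr3c1 (-0.0014 with all arrays) was at 0.014, Esr2 (0.0071) at -0.024, Pgr (0.0044) at -0.067, Nr1h3 (-0.0099) at 0.032 and Nr2f6 (-0.0061) at 0.049. After centring, Esr2 was at -0.044 and Pgr at -0.046. With array weights, Esr2 was at -0.0013 and Hsd11b1 (-0.024) at 0.017. With arrays left out, Nr3c1 lay between -0.14 and 0.059, Esr2 between -0.091 and 0.10, Pgr between -0.041 and 0.076, Nr1h3 between -0.055 and 0.061, Nr2f6 between -0.024 and 0.029, Hsd11b1 between -0.087 and 0.042 and Nr6a1 (0.13) between -0.0056 and 0.19. The negative Nr6a1 value came from leaving out Mock replicate 1 and Ad-Epas1 replicate 3 together, which gave 0.031 for Hsd11b1.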
